A study of Mus musculus with 15 samples.

Results

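The 8 genes described here are the small heat shock protein genes Cryab, Hspb1, Hspb2, Hspb3, Hspb6, Hspb7 and Hspb8 together with Bag3, the co-chaperone gene that works beside Hspb8. They were chosen by name, with earlier results of these data known. All 8 were found among the 36653 Ensembl identifiers of an expression table from mouse ventricle. The 15 libraries came from wild-type C57BL/6 mice aged 10 weeks and were in 3 groups of 5 biological replicates. AngII plus OA mice carried an implanted pump delivering angiotensin II, the pressor hormone used to induce cardiac remodelling, at 1000 ng/kg/min, and were also given OA (oleic acid, per the series title) at 160 mg/kg in a daily volume of 0.3 mL per mouse. AngII mice carried the same pump without OA, and vehicle mice received saline. The sources used here do not give the length of treatment, the sex of the mice or the route of OA. RNA was purified from whole ventricle and selected on oligo(dT), so each value is a mean over all cell types of the tissue. In such bulk samples, fewer cells of a type and less RNA per cell cannot be told apart.

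Small heat shock proteins are holdases: they form oligomers that bind unfolding proteins without using ATP and pass them to HSP70 for refolding or disposal. Striated muscle expresses many of them, and in cardiomyocytes they associate with Z-discs, desmin filaments and filamin. BAG3 joins HSPB8 to HSP70 and directs damaged sarcomere proteins to autophagy, a route called chaperone-assisted selective autophagy. Mutations of human CRYAB and BAG3 cause myopathy and cardiomyopathy.

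The group of AngII hearts held 1 library that stood apart. On the first principal component of all tested genes, which carried 29.0% of the variance, AngII replicate 2 lay at -66.1, while the other 14 libraries lay between -8.98 and 17.2. Its summed level of 5 atrial marker genes was 3046 FPKM (reads scaled to exon length and to library size), against at most 750 FPKM in every other library. Its summed level of 11 cardiomyocyte marker genes was 19069 FPKM, against 30932 to 41856 FPKM in the other 14. Its summed adipocyte markers were also the highest, at 302 FPKM, against at most 88.7 FPKM in every other library. Cardiomyocyte markers were abundant in all 15 libraries, and the FPKM denominators corresponded to between 24.5 and 28.3 M reads. Results below are given with and without AngII replicate 2 wherever its omission moved a call.

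Cryab was the most abundant member, at 1266 FPKM on average over 15 libraries, and ranked 17 among all genes that are not mitochondrially encoded. Hspb7, a muscle small heat shock protein that in mice is needed for intact cardiac filaments, followed at 739 FPKM and rank 42, below Cryab in 15 of 15 libraries. Hspb6 (HSP20, a target of protein kinase A) averaged 336 FPKM, Hspb1 (HSP25, the mouse form of HSP27) 294 FPKM and Hspb8 (HSP22) 242 FPKM. These 3 could not be put in a fixed order: Hspb6 exceeded Hspb1 in 9 of 15 libraries and Hspb1 exceeded Hspb8 in 8 of 15. Bag3 averaged 89.2 FPKM and lay below Hspb8 in 15 of 15 libraries. Hspb2 and Hspb3, which form a complex with each other in muscle, were far scarcer at 15.8 and 13.0 FPKM, and Hspb2 exceeded Hspb3 in 11 of 15 libraries. FPKM values are per length, so these levels can be compared between genes. Over the 15 libraries the highest value was 5.50 times the lowest for Hspb1, the most variable member, and 1.66 times the lowest for Hspb8, the least variable.

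Read depth differed widely behind these values. Whole reads recovered from the FPKM steps numbered 30382 to 83543 per library for Cryab, 26141 to 90164 for Hspb7 and 4393 to 7653 for Bag3, but only 179 to 526 for Hspb2 and 108 to 398 for Hspb3. In the GENCODE vM21 annotation, exons of Cryab and Hspb2 overlap on opposite strands of chromosome 9. Whether counting used the strand is not given in the sources used here, so reads in the shared stretch cannot be told apart and the Hspb2 level is uncertain. Hspb6 likewise overlaps exons of Proser3 and Lin37 on the other strand of chromosome 7, but those genes averaged 0.559 and 6.27 FPKM, far below Hspb6.

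Heat shock genes are classically driven by heat shock factor 1 through promoter elements built from inverted GAA units, so the members' promoters are shown for the spelling of such a pair. RefSeq promoters on GRCm38.p6, each with 250 bases before and 50 bases after the start site, were available for 6 of the 8 members and 7 start sites. Both strands were searched for GAANNTTC and TTCNNGAA, which are each their own reverse complement. GAANNTTC was found in 5 of the 7 promoters, and TTCNNGAA in 0. Among all 32851 promoters of that length in the table, 7.86% held GAANNTTC and 8.52% held TTCNNGAA. The sequences below, written 5′ to 3′ on the strand of the gene with matches in capitals, are those of the most abundant members with a promoter and of Bag3. They are Hspb7 (chr4:141420529-141420828, plus strand), the second Hspb6 start, the one with a match (chr7:30553051-30553350, plus strand), Hspb1 (chr5:135887669-135887968, plus strand), Hspb8 (chr5:116422815-116423114, minus strand) and Bag3 (chr7:128523333-128523632, plus strand).
Hspb7: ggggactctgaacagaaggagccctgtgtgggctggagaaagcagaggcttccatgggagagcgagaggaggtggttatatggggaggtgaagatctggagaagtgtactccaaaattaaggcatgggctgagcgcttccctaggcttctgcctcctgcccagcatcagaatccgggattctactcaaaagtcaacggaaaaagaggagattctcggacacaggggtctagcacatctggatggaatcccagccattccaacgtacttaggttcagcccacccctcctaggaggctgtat
Hspb6: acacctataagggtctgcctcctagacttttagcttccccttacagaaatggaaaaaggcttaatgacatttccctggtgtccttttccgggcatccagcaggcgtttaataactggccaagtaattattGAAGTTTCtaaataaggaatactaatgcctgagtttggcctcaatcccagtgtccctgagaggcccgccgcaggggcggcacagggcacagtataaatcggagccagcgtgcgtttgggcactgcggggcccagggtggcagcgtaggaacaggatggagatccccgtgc
Hspb1: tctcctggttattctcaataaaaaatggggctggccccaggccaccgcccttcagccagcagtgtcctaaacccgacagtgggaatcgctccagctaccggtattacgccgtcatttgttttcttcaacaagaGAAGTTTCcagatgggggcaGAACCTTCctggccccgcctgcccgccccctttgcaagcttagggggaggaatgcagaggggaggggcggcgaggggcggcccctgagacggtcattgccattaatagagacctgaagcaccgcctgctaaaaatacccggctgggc
Hspb8: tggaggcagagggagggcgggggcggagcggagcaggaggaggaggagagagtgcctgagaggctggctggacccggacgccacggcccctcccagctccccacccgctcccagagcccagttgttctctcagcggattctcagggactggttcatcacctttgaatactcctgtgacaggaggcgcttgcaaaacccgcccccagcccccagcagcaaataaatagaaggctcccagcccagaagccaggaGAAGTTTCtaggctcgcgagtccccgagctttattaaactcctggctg
Bag3: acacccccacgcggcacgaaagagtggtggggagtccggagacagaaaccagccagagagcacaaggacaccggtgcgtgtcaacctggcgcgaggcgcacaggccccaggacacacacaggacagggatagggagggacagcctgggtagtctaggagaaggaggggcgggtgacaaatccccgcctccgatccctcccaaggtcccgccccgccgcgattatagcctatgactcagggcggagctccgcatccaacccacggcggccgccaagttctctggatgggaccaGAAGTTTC
The same 8 letters, GAAGTTTC, stood in Hspb1, Hspb6, Hspb8 and Bag3, and Hspb1 held a second pair, GAACCTTC, downstream of the first. Counted from the start site, the Hspb1 pairs began at -117 and -97 and the Hspb6 pair at -120. In Hspb8 and Bag3 the pair lay after the start site, beginning at base 2 and base 42. The Hspb3 promoter held GAATTTTC at -224, and neither Hspb7 nor the first Hspb6 start held either spelling in this window. A match is a run of letters, and binding of a factor was not measured.

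The comparison of AngII with vehicle hearts asks how the pressor stimulus alone related to each gene. Hspb7 and Hspb6 averaged 1.63 and 1.65 times their vehicle levels in AngII hearts, but neither passed the adjusted threshold when all 15 libraries were weighted equally. Hspb7 measured 992, 580, 912, 823 and 819 FPKM in AngII hearts, against 643, 580, 486, 435 and 384 FPKM in vehicle hearts. Only AngII replicate 2 and vehicle replicate 1 brought the groups into overlap: the other 4 AngII hearts lay above every vehicle heart. The log2 change of Hspb7 was 0.71 (SE 0.19, limma adjusted p = 0.0812). Hspb6 measured 517, 214, 411, 408 and 388 FPKM in AngII hearts, against 263, 224, 231, 227 and 227 FPKM in vehicle hearts. The vehicle hearts were tightly grouped for Hspb6, with an SD of 15.9 FPKM, and AngII replicate 2 was the only AngII heart not above all of them. Its log2 change was 0.67 (SE 0.22, limma adjusted p = 0.137).

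Without AngII replicate 2, the library with high atrial and adipocyte and low cardiomyocyte markers, both genes were higher in AngII than in vehicle hearts and passed the test. Hspb6 then averaged 431 ± 58.2 FPKM in AngII hearts (SD, n = 4) and 234 ± 15.9 FPKM in vehicle hearts (SD, n = 5), a log2 change of 0.87 (limma adjusted p = 0.0245). Hspb7 averaged 887 ± 82.4 FPKM in AngII hearts (SD, n = 4) and 506 ± 106 FPKM in vehicle hearts (SD, n = 5), a log2 change of 0.83 (limma adjusted p = 0.0350). These 2 of 8 members compare with 1.69% of all 13121 tested genes called higher in that fit, and the same 2 of 8 did not overlap between groups, against 5.68% of all genes. The members were chosen with earlier results of these data known, so these counts are a description and not a test of the list. Keeping every library but weighting each by its fit, which gave AngII replicate 2 a weight of 0.155, gave adjusted p-values of 0.0301 for Hspb6 and 0.0308 for Hspb7. Vehicle replicate 1 had the highest Cryab, Hspb6 and Hspb7 of its group. It also had the highest cardiomyocyte marker sum of the vehicle hearts, 38278 FPKM, and the lowest atrial marker sum, 17.0 FPKM, and the part of such differences in cell make-up in these results was not tested.

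**Figure D1:**
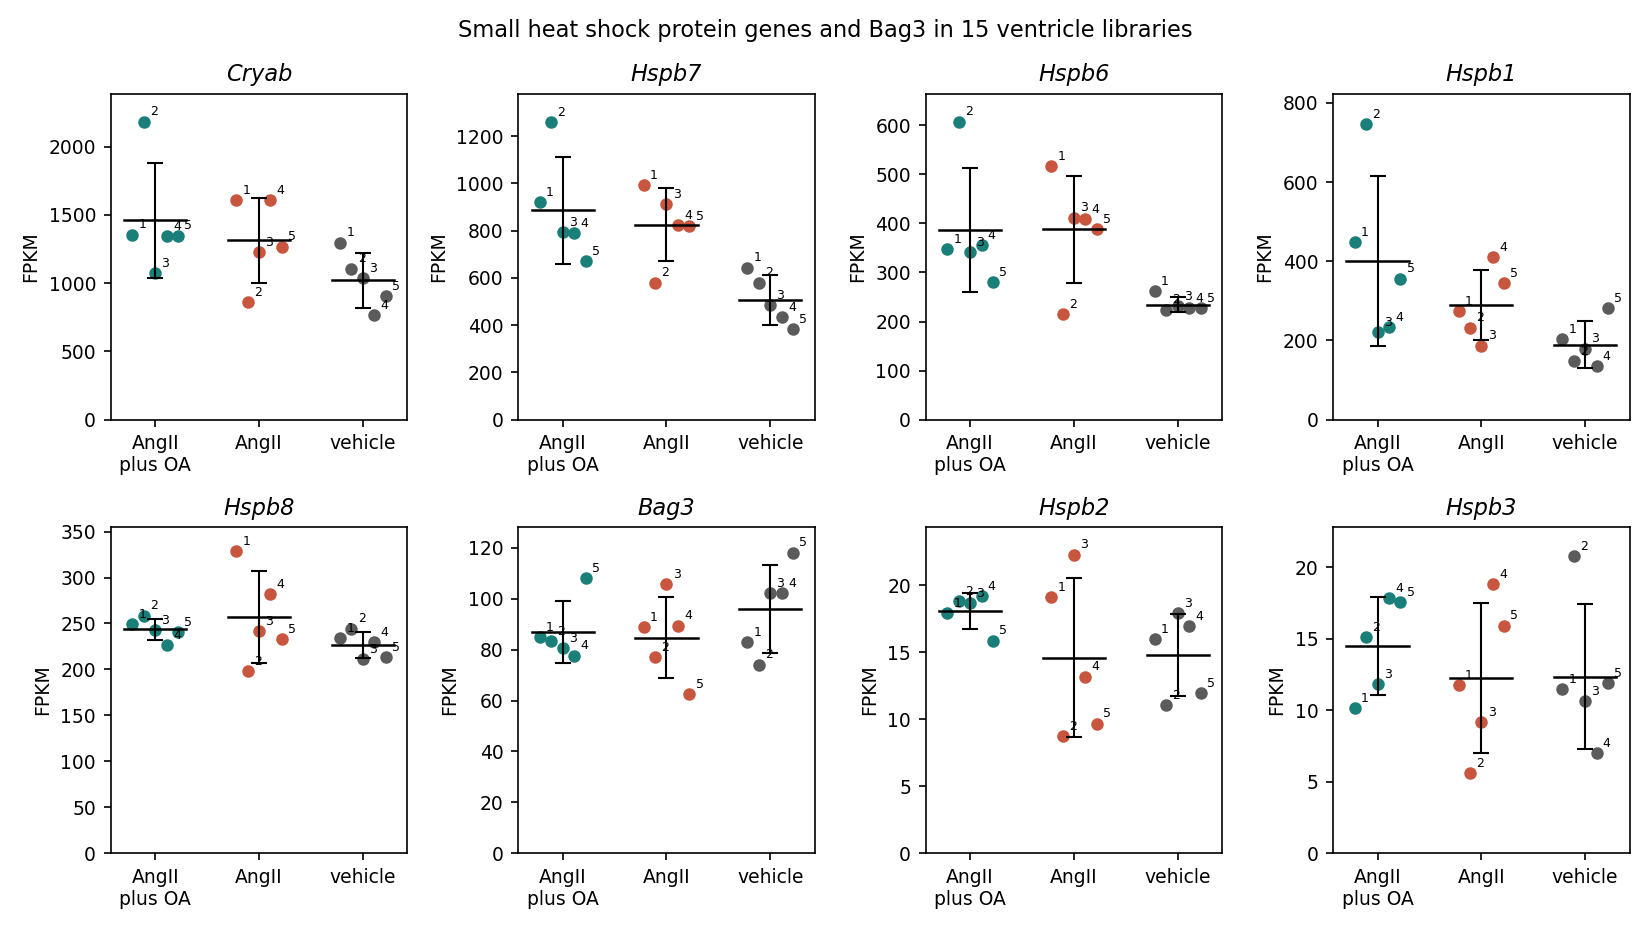
FPKM (vertical axes, each starting at 0) of the 8 genes in the 5 AngII plus OA, 5 AngII and 5 vehicle hearts; points carry the replicate number, and lines with bars give the mean ± SD. Replicate 2 is the lowest AngII heart for 6 of the 8 genes, among them Hspb6 at 214 FPKM and Hspb7 at 580 FPKM.

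The other members did not pass the test between AngII and vehicle hearts. With all libraries, the groups overlapped for 8 of 8 members, where 3.8% of all tested genes did not overlap. Cryab, a major binding partner of desmin, measured 1608, 862, 1225, 1610 and 1268 FPKM in AngII hearts, against 1297, 1107, 1039, 767 and 904 FPKM in vehicle hearts. Its log2 change was 0.35 (SE 0.21, limma adjusted p = 0.424); 2 AngII hearts exceeded all vehicle hearts, and AngII replicate 2 was below 4 of them. Hspb1, which protects actin filaments, measured 275, 233, 187, 410 and 345 FPKM in AngII hearts, against 204, 147, 179, 136 and 283 FPKM in vehicle hearts. The log2 change of Hspb1 was 0.60 (SE 0.31, limma adjusted p = 0.349), with 2 of 5 AngII hearts above every vehicle heart. Hspb8 averaged 257 ± 50.01 FPKM in AngII hearts and 227 ± 14.2 FPKM in vehicle hearts (SD, n = 5 each), a log2 change of 0.16 (limma adjusted p = 0.543). Its partner Bag3 averaged 84.7 ± 16.0 FPKM in AngII hearts and 95.9 ± 17.4 FPKM in vehicle hearts (SD, n = 5 each), a log2 change of -0.18 (limma adjusted p = 0.601). Hspb2 averaged 14.6 ± 5.93 FPKM in AngII hearts and 14.8 ± 3.08 FPKM in vehicle hearts (SD, n = 5 each), and Hspb3 averaged 12.2 ± 5.24 FPKM in AngII hearts and 12.3 ± 5.08 FPKM in vehicle hearts (SD, n = 5 each). The signs of these last 2 changes, -0.08 and -0.04 on the log2 scale, reversed when AngII replicate 2 was left out or down-weighted. Other alternatives reversed them too, which made 4 reversals for Hspb2 and 5 for Hspb3.

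Over the 8 members, 0 were called by limma between AngII and vehicle hearts at an adjusted p under 0.05, where 1.5% of all 13121 tested genes were called. At an unadjusted p under 0.05 the count was 2 of 8, Hspb6 and Hspb7, where 16.6% of all genes passed. The median log2 change of the members was 0.25, beside 0.07 over all tested genes. Rescaled without mitochondrially encoded genes, which took a share of FPKM that differed between groups, these medians were 0.16 and 0.0082. Hspb7, Hspb6, Hspb1 and Cryab stood at the upper end of the list and Bag3 at its lower end.

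**Figure D2:**
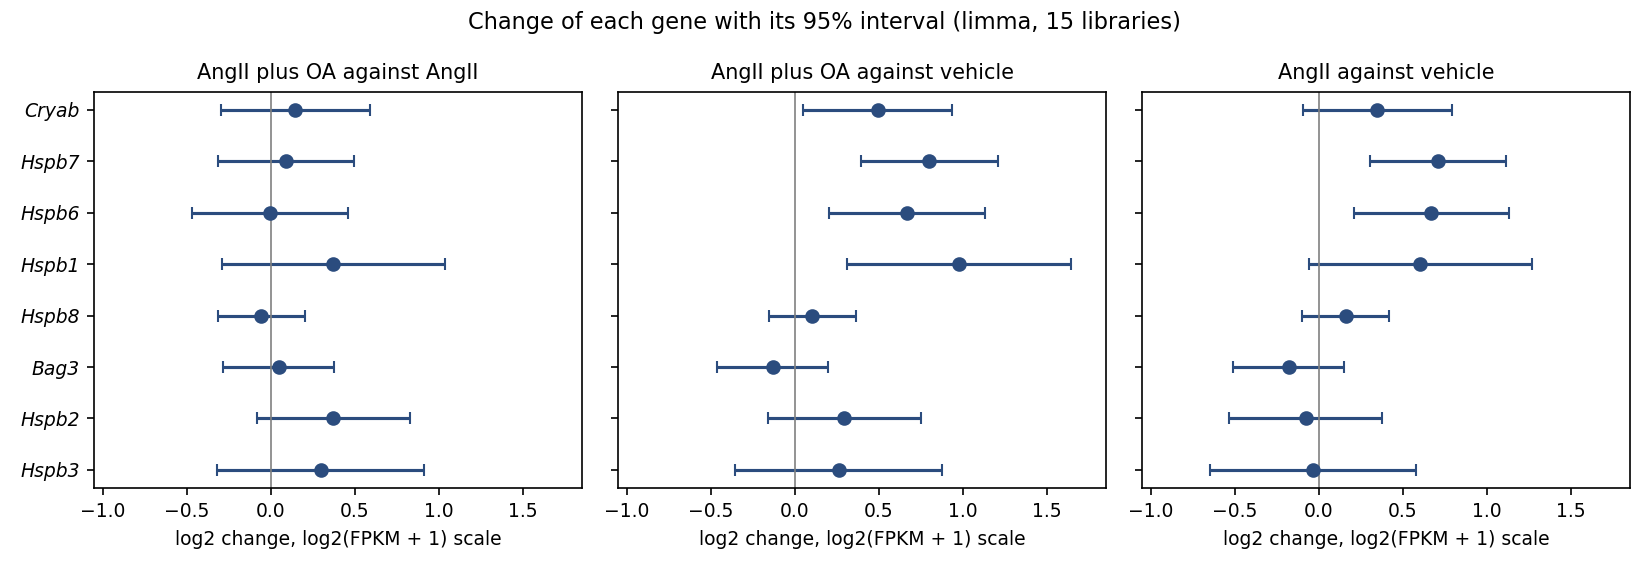
log2 change with its 95% interval for each of the 8 genes in the 3 comparisons, on the log2(FPKM + 1) scale. The grey vertical line marks no difference. In AngII plus OA against AngII every interval spans 0, while those of Hspb6 and Hspb7 lie above 0 in both comparisons with vehicle; intervals are per gene and not adjusted for the 13121 tests.

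Adding OA to AngII asks whether the fatty acid moved these genes within pressor-treated hearts. None of the 8 genes passed the test, and the groups overlapped for each of them, where 1.27% of all tested genes did not overlap. Cryab measured 1356, 2183, 1071, 1343 and 1349 FPKM in AngII plus OA hearts, beside the 5 AngII values above, a log2 change of 0.15 (95% interval -0.30 to 0.59). AngII plus OA replicate 2 was far above the rest of its group, and the other 4 hearts lay inside the range of the AngII hearts. Hspb7 measured 921, 1259, 793, 791 and 669 FPKM in AngII plus OA hearts, with a log2 change of 0.09 (95% interval -0.31 to 0.50). Hspb6 measured 347, 607, 341, 356 and 281 FPKM in AngII plus OA hearts and averaged 386 ± 127 FPKM, against 388 ± 109 FPKM in AngII hearts (SD, n = 5 each). The Hspb6 interval ran from -0.47 to 0.46. For these 3 muscle forms no difference was detected, and the intervals are what the 10 hearts allow.

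Hspb1 had the widest spread with OA relative to its mean: 448, 746, 221, 234 and 356 FPKM in AngII plus OA hearts, and a log2 change of 0.37 against AngII hearts (95% interval -0.29 to 1.04). AngII plus OA replicates 1 and 2 lay above every AngII heart, and the other 3 lay inside the AngII range. Hspb8 averaged 244 ± 11.8 FPKM in AngII plus OA hearts, against 257 ± 50.01 FPKM in AngII hearts (SD, n = 5 each), with the narrowest interval of the 8 genes, -0.31 to 0.20. Bag3 averaged 86.9 ± 12.2 FPKM in AngII plus OA hearts, against 84.7 ± 16.0 FPKM in AngII hearts (SD, n = 5 each), with an interval of -0.28 to 0.38. Hspb2 measured 17.9, 18.8, 18.7, 19.2 and 15.9 FPKM in AngII plus OA hearts, a narrow range inside the AngII range of 8.72 to 22.3 FPKM. Its interval was -0.08 to 0.83, and that of Hspb3 was -0.32 to 0.91. Limma called 0 of 8 members and 0% of the 13121 tested genes in this comparison, with member adjusted p-values of 0.750 to 0.998. At an unadjusted p under 0.05 it called 0 members and 866 genes, or 6.6%.

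Setting AngII plus OA hearts against vehicle hearts shows the combined treatment, with the same vehicle hearts as before. Hspb6 and Hspb7 were higher in all 5 AngII plus OA hearts than in any vehicle heart. For Hspb7 the lowest AngII plus OA value was 669 FPKM and the highest vehicle value 643 FPKM, and for Hspb6 these were 281 and 263 FPKM. On FPKM as deposited, this separation held in 2 of 8 members and in 0.655% of all tested genes with AngII plus OA higher. The Hspb7 margin depends on the scaling. Mitochondrially encoded genes took 42.6% of FPKM in AngII plus OA replicate 5, which had that lowest value. They took 45.3% in vehicle replicate 1, which had that highest value. With those genes taken out of the total, the 2 hearts change order for Hspb7. Because the members were chosen with earlier results of these data known, the member counts here are a description and not a test. The log2 change was 0.80 for Hspb7 (SE 0.19, unadjusted p = 0.00074, limma adjusted p = 0.926) and 0.67 for Hspb6 (unadjusted p = 0.00764, limma adjusted p = 0.99999). Hspb1 had the highest estimate, a log2 change of 0.98 (unadjusted p = 0.00678, limma adjusted p = 0.99999), with means of 401 ± 214 FPKM in AngII plus OA hearts and 190 ± 58.4 FPKM in vehicle hearts (SD, n = 5 each). Cryab had a log2 change of 0.49 (unadjusted p = 0.0315, limma adjusted p = 0.99999). These 4 of 8 members had an unadjusted p under 0.05, all with AngII plus OA higher, where 2.58% of all genes did so. No call can be made from them, because limma called 0 of 8 members and 0% of the 13121 genes in this comparison after adjustment, with 441 genes, or 3.36%, at an unadjusted p under 0.05. The remaining members, Hspb2, Hspb3, Hspb8 and Bag3, had unadjusted p-values above that threshold.

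**Figure D3:**
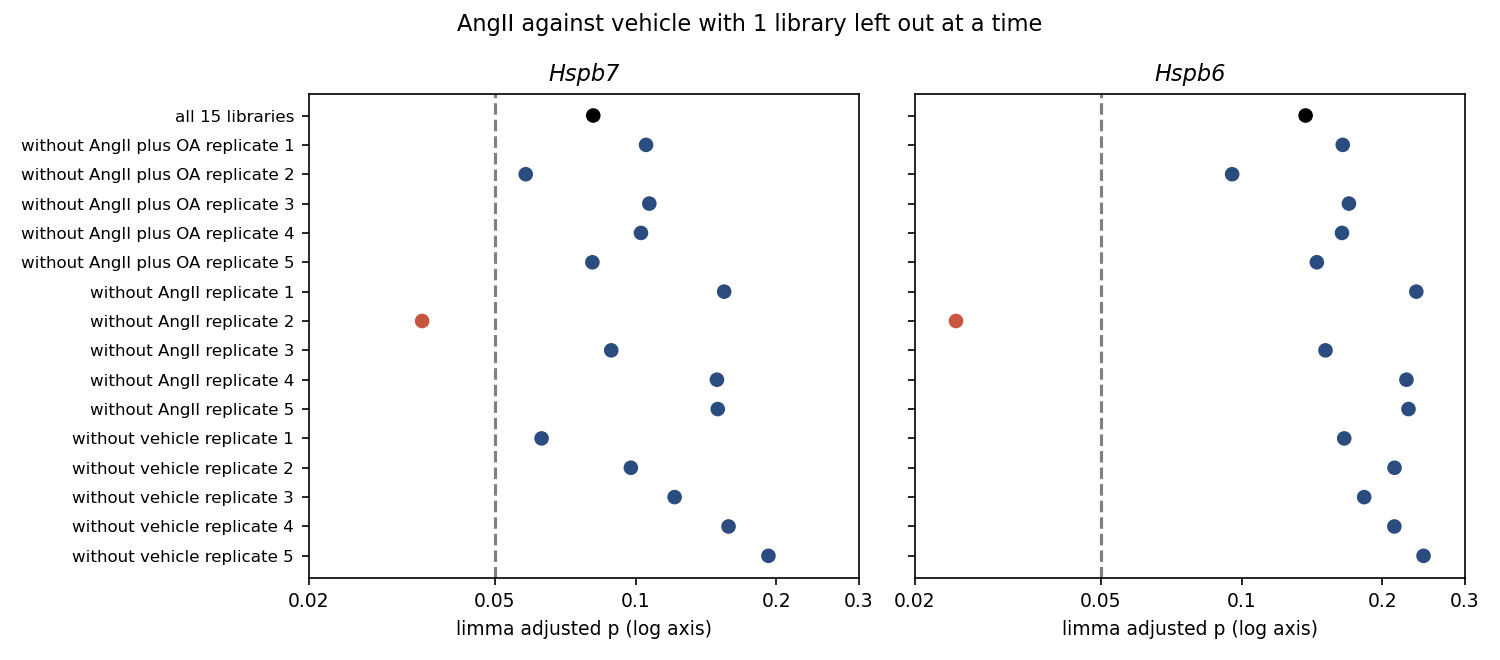
Adjusted p (log axis) of Hspb6 and Hspb7 for AngII against vehicle with each of the 15 libraries left out in turn; black is all 15 libraries, red is without AngII replicate 2, and the dashed line is 0.05. The red points, at 0.0245 for Hspb6 and 0.0350 for Hspb7, lie below the line.

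The abundant muscle forms varied together from heart to heart. Over all 15 libraries, which share the 3 group differences, Hspb6 and Hspb7 had r = 0.92 (rho = 0.90), and r was 0.84 after the group means were removed. Leaving out the 2 libraries farthest from the median of Hspb6 gave r = 0.91 for that pair. Cryab had r = 0.86 with Hspb6 and 0.86 with Hspb7, so these 3 genes varied most closely together. Hspb8 followed them less closely, at r = 0.72 with Hspb6, 0.68 with Cryab and 0.64 with Hspb7. After the group means were removed these were 0.70, 0.66 and 0.63. Without the 2 farthest libraries, Cryab had r = 0.82 with Hspb8 and 0.75 with Hspb7. Hspb1 was tied to Cryab more loosely, at r = 0.75, or 0.46 without the 2 farthest libraries. Bag3 was apart from all of them, with r between -0.41 and 0.39 against the 7 small heat shock protein genes. These correlations describe 15 libraries and were not tested.

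The genes whose pattern over 15 libraries was most like each member were sought among 5816 genes with a mean of at least 5 FPKM. For Cryab the nearest was Csrp3 (muscle LIM protein of the Z-disc), at r = 0.96 and rho = 0.95. For Hspb6 it was Xirp2, an actin-binding protein of the intercalated disc, at r = 0.95 and rho = 0.98. Hspb7 was nearest to Mettl9, a protein methyltransferase gene, at r = 0.92, followed by Nrap, a scaffold of myofibril assembly, at r = 0.92. Synpo2l, which encodes a Z-disc protein, was among the 3 nearest of both Cryab and Hspb6. The nearest gene of Hspb2 was Cox5a, a cytochrome oxidase subunit, at r = 0.93, and that of Hspb3 was the mitochondrial ribosomal gene Mrpl51, at r = 0.95. Hspb1 was nearest to the growth factor gene Hbegf at r = 0.79 and Hspb8 to the deubiquitinase gene Uchl3 at r = 0.84. Each neighbour was picked as the highest of 5816, so none of these values is a test. Of the 8 fibroblast markers, 5 had r above 0.5 with Hspb6 and 4 with Hspb7, where 10.8% and 7.58% of all tested genes did. Group means were not removed for these marker counts. All 8 fibroblast markers, like Hspb6 and Hspb7, had log2 changes above 0 in both comparisons with vehicle. The part of these shared group differences in the counts was not tested. Of the 11 cardiomyocyte markers, 3 had r above 0.5 with Hspb6, 2 with Hspb7 and 7 with Cryab, where 8.29% of all tested genes did so with Cryab. The count was also 7 with Hspb3, 6 with Hspb2 and 5 with Hspb8, where 19.2%, 15.4% and 11% of all tested genes passed. With Hspb1 it was 1 and with Bag3 0, where 2.87% and 3.67% passed. Of the 5 atrial markers, 3 had r below -0.5 with each of Cryab, Hspb6 and Hspb7, where 2.56%, 2.39% and 2.27% of all tested genes did. The atrial count was 1 with Hspb8, where 2.355% did. It was 0 with Hspb1, Hspb2, Hspb3 and Bag3, where 1.9%, 12.9%, 9.61% and 8.11% did. AngII replicate 2, with its high atrial markers, is among these libraries, and its part in these counts was not tested.

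Bag3 followed inducible chaperone genes more closely than it followed the small heat shock protein genes. Its nearest genes were Ccl11 (eotaxin) at r = 0.80, Emilin2 at r = 0.80 and Hsp90aa1, the inducible HSP90, at r = 0.79 and rho = 0.89. Bag3 measured 84.8, 83.5, 80.5, 77.7 and 108 FPKM in AngII plus OA hearts, 88.8, 77.1, 106, 89.5 and 62.6 FPKM in AngII hearts and 83.0, 74.1, 102, 102 and 118 FPKM in vehicle hearts. The vehicle hearts split into replicates 1 and 2, which were low, and replicates 3, 4 and 5, which were high. Hsp90aa1 measured 63.0, 77.6, 74.4, 76.3 and 89.6 FPKM in AngII plus OA hearts, 80.5, 56.9, 84.0, 99.2 and 61.3 FPKM in AngII hearts and 63.0, 38.8, 139, 107 and 183 FPKM in vehicle hearts. The same 3 vehicle hearts were high for Hsp90aa1, and vehicle replicate 5 had the highest value of all 15 libraries for both genes. Hspa1a, inducible HSP70, which was chosen after its values were seen, measured 1.94, 4.42, 2.003, 6.13 and 25.8 FPKM in AngII plus OA hearts, 1.77, 1.47, 2.58, 11.5 and 1.05 FPKM in AngII hearts and 2.36, 1.69, 19.6, 17.1 and 71.2 FPKM in vehicle hearts. Its high hearts were again vehicle replicates 3, 4 and 5, and AngII plus OA replicate 5, the heart with the most Bag3 in its group. Other hearts did not match. AngII replicate 3 had 106 FPKM of Bag3, above vehicle replicates 3 and 4, but 2.58 FPKM of Hspa1a. AngII replicate 4 had 11.5 FPKM of Hspa1a with 89.5 FPKM of Bag3. Hspa1a and Hspa1b are near-identical copies, so their split of reads is uncertain.

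Of 18 large heat shock chaperones and co-chaperones, 10 had r above 0.5 with Bag3, where 3.67% of all tested genes did. With each library left out in turn the count was 10 or 11 of 18, while the share of all genes ranged from 2.26% without AngII replicate 5 to 9.22% without vehicle replicate 5. Under the same omissions r between Bag3 and Hsp90aa1 was 0.72 to 0.83, lowest without vehicle replicate 5. With Cryab, Hspb1, Hspb3, Hspb6 and Hspb7 the count was 0 of 18, where 8.29%, 2.87%, 19.2%, 10.8% and 7.58% of all genes passed. With Hspb8 it was 1, where 11% of all genes passed, and with Hspb2 it was 5, where 15.4% did. In the other direction, 4 of 18 had r below -0.5 with Hspb7, where 2.27% of all genes did. Neither the difference between these counts nor its source was tested, and how the hearts were handled before RNA extraction is not given in the sources used here.

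**Figure D4:**
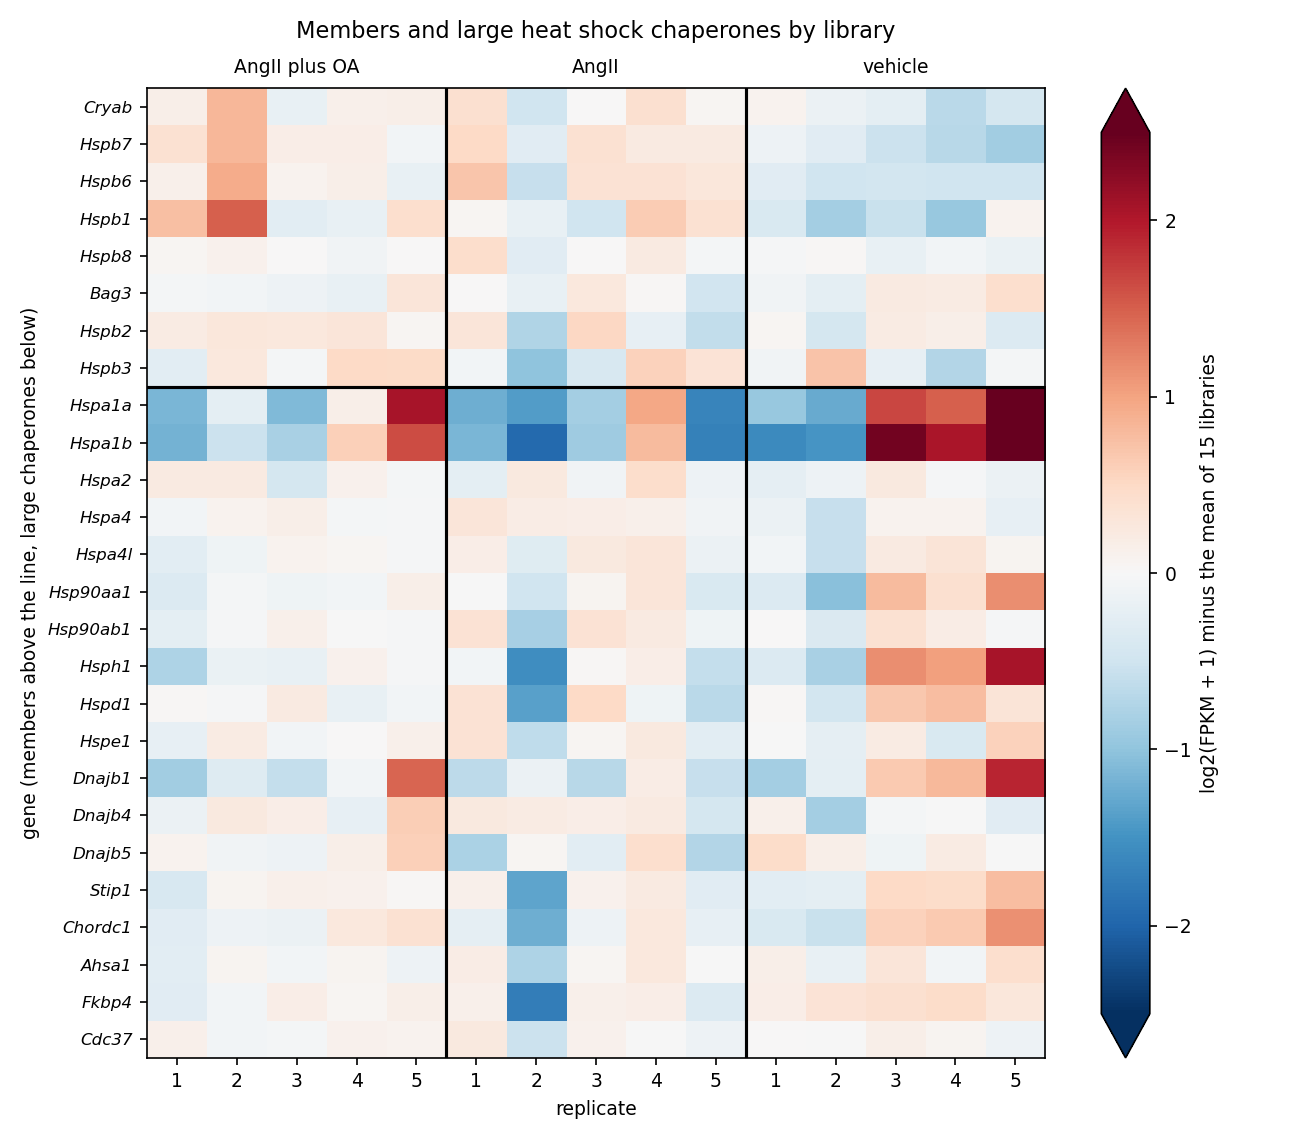
Each library's log2(FPKM + 1) minus the gene's mean over 15 libraries, for the 8 genes and 18 large heat shock chaperones and co-chaperones, with libraries in the order AngII plus OA, AngII, vehicle; the colour scale is capped at ±2.5. Hsp90aa1 and Hspa1a are high in vehicle replicates 3, 4 and 5, whereas Cryab, Hspb6 and Hspb7 are high in AngII plus OA replicate 2. Bag3 is higher in vehicle replicates 3, 4 and 5 than in vehicle replicates 1 and 2. It spans only 62.6 to 118 FPKM over all libraries, so its shades differ little on this scale.

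The rest of the chaperone network gave few calls between AngII and vehicle hearts. Among 4 other small heat shock protein genes, Hspb11, now known as a ciliary transport protein, was the 1 gene abundant enough to test, at 2.83 ± 0.931 FPKM in AngII hearts and 1.81 ± 0.368 FPKM in vehicle hearts (SD, n = 5 each; limma adjusted p = 0.139), and Hspb9 fell under the filter. Of the 5 other BAG genes 0 were called, and Bag1, the most abundant, had a log2 change of -0.02, with 0.12 for Bag6. Of 10 Bag3 partners and autophagy genes 0 were called: Hspa8, constitutive HSC70, had a log2 change of -0.05, and the autophagy receptor gene Sqstm1 one of 0.42 (limma adjusted p = 0.161). Sqstm1 measured 205 FPKM in AngII replicate 2 and 113 to 144 FPKM in the other AngII hearts, against 86.9 to 121 FPKM in vehicle hearts. Of the 18 large chaperones 0 were called, although 14 were lower in AngII hearts, with a median log2 change of -0.35 beside 0.07 over all genes. That median was -0.20 without AngII replicate 2, when 11 of 18 were lower, and -0.23 without vehicle replicate 5, when 13 were. Within that list Hsp90ab1, the constitutive HSP90, had a log2 change of -0.04, and Fkbp4, an HSP90 co-chaperone, averaged 86.0 ± 34.7 FPKM in AngII hearts and 124 ± 9.68 FPKM in vehicle hearts (SD, n = 5 each; limma adjusted p = 0.242). The heat shock factor list also gave 0 of 4, with -0.10 for Hsf1 and 0.09 for Hsbp1, which binds and restrains it. At an unadjusted p under 0.05 the counts were 1 of 1, 0 of 5, 4 of 10, 4 of 18 and 0 of 4 in these lists, where 16.6% of all genes passed, and 1.5% did after adjustment. The 4 large chaperones went both ways, 1 higher and 3 lower in AngII hearts. Each of the 4 Bag3 partners and autophagy genes had its highest value of all libraries in AngII replicate 2.

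Among 12 sarcomere and cytoskeleton clients, Des was the 1 gene called. Des encodes desmin, the intermediate filament that CRYAB chaperones, and it rose in AngII hearts to 657 ± 71.5 FPKM, against 411 ± 57.0 FPKM in vehicle hearts (SD, n = 5 each). All 5 AngII hearts lay above every vehicle heart, and the log2 change was 0.68 (SE 0.15, limma adjusted p = 0.0335). The call was lost without AngII replicate 1, 4 or 5 or vehicle replicate 3, 4 or 5, at adjusted p-values up to 0.0940. It was also lost after quantile normalization, a shift to a common median or rescaling without mitochondrially encoded genes. The same held without a filter, with only the 10 libraries compared, and with replicate number as a further term. The log2 change stayed between 0.59 and 0.75 in these and the other alternatives. In AngII plus OA hearts Des averaged 646 ± 154 FPKM. Fibroblast and macrophage markers moved in the same comparison: 4 of 8 fibroblast and 4 of 8 macrophage markers were called higher in AngII than in vehicle hearts, where 1.27% of all tested genes were. The summed fibroblast markers ranged from 759 to 1250 FPKM in AngII hearts and from 380 to 722 FPKM in vehicle hearts, and the summed macrophage markers from 227 to 380 FPKM in AngII hearts and from 161 to 214 FPKM in vehicle hearts. Of the 11 cardiomyocyte markers 0 were called. The part of these markers in the values of Des and of the 8 genes was not tested.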

How the data were processed

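Ventricle RNA of 15 mice, 5 per group, was sequenced as oligo(dT)-selected libraries, per the labels' protocols. The deposited values are FPKM per Ensembl gene, made by the authors from reads aligned with HISAT2 2.0.4 to build mm8, per the submitters' processing notes; the counter, annotation and strand setting: not given in the sources used here. The analysis used log2(FPKM + 1), kept the 13121 genes with a mean of at least 0.5 FPKM, and fitted limma 3.58.1 (R 4.3.3) with a mean-variance trend over all 15 libraries with group as the only term. Changes on this scale understate those of low genes. P-values are 2-sided and adjusted by Benjamini and Hochberg over all tested genes within each comparison, with 0.05 as the threshold. The fit was tested on simulated data. Group differences rest on the spread between mice. Symbols came from the GENCODE vM21 annotation, and promoters from RefSeq on GRCm38.p6.

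Reads were recovered from FPKM steps with annotated exon lengths, within 0.02 of a whole number for all 8 members in 15 of 15 libraries. They describe depth only and were not tested. Mitochondrially encoded genes took 34.5% to 50.0% of FPKM. The share was 44.6% to 50.0% in vehicle hearts, 34.5% to 48.3% in AngII hearts and 38.6% to 47.0% in AngII plus OA hearts. A lower share raises the FPKM of all other genes.

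The members, the 16 gene and marker lists and the lists' contents were chosen with earlier results of these data known. Besides the 8 members, each pathway list names its called genes, at most 4, or else its 2 most abundant, and each member has its 3 nearest genes by Pearson's r, of which the text names some. Hspa1a was chosen outside this rule, after its values were seen. Alternatives changed the pseudocount to 0.1, the filter, the scaling, the libraries used, the trend, the weights and the replicate block. Leaving out replicate 2 of AngII plus OA and of AngII together was added after seeing the data.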

Additional observations from a re-analysis of the deposited data

Results flagged for a closer look

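Within the 24 groups of 5 values formed by 8 genes and 3 groups, 4 values stood far from the nearest other by Dixon's test, which marks about 1 in 20 groups by chance. Cryab reached 2183 FPKM in AngII plus OA replicate 2, where the next value was 1356 FPKM. Hspb6 reached 607 FPKM in the same heart, where the next value was 356 FPKM. That heart had the highest cardiomyocyte marker sum of all 15 libraries, 41856 FPKM, and an atrial marker sum of 50.1 FPKM. Hspb6 reached 263 FPKM in vehicle replicate 1, where the next value was 231 FPKM. Bag3 reached 108 FPKM in AngII plus OA replicate 5, where the next value was 84.8 FPKM, and the same heart had the highest Hspa1a of its group, 25.8 FPKM.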

How the results depend on the processing

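Limma called 197 genes between AngII and vehicle hearts, 166 higher and 31 lower. The count was 72 without a filter, 109 after quantile normalization (69 higher, 40 lower), 114 rescaled without mitochondrially encoded genes (77 higher, 37 lower) and 70 with only the 10 libraries compared; shifting to a common median gave 103 higher and 57 lower. The replicate block gave 38 and an adjusted p of 0.0649 for Des in limma. Deviations of same-numbered libraries correlated between -0.35 and 0.43. The numbers are not said to pair the mice, and these correlations cannot settle whether they do. Leaving out 1 library gave 49 to 425: 86 without AngII replicate 1, 425 without replicate 3, 70 without replicate 4 and 49 without replicate 5, and 79, 128, 70 and 50 without vehicle replicates 2, 3, 4 and 5. The other comparisons gave 0 calls throughout, except 1 for AngII plus OA against AngII without AngII replicate 3 (leave-one-out range 0 to 1).

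No member was called with all 15 libraries unless weights were used. The log2 changes that turned sign are those below. Between AngII and vehicle hearts, Hspb2 was 0.15 with weights and Hspb3 0.095, and 0.072 and 0.19 with both replicates 2 left out; their leave-one-out ranges were -0.24 to 0.072 and -0.21 to 0.19. Between AngII plus OA and AngII hearts, weights gave Cryab -0.026, Hspb7 -0.046 and Bag3 -0.041, and leaving out both replicates 2 gave Cryab -0.15 and Hspb7 -0.16. A common median gave Hspb6 0.059 and Hspb8 0.0054. Leave-one-out ranges were -0.0097 to 0.25 for Cryab, -0.20 to 0.12 for Hspb6, -0.043 to 0.18 for Hspb7, -0.14 to 0.039 for Hspb8 and -0.055 to 0.13 for Bag3. Hspb8 was -0.019 between AngII plus OA and vehicle hearts after quantile normalization. The cause of these shifts was not tested. Hspb2 and Hspb3 rest on few reads.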
